A study of Mus musculus with 6 samples.

Results

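The mouse genes described here make cholesterol, control that synthesis through the SREBP system or report on sterol load: 29 genes, chosen by name from the pathway, with earlier results of these data known, of 23337 genes in the deposited table. Of these, 8 act in the early mevalonate steps, 11 between squalene and cholesterol, 6 in SREBP control and 4 in sterol transport and the LXR arm. Counts were high enough for a test in 28 of the 29, among 11283 genes tested; Nr1h3 was the exception. Granulocyte-monocyte progenitors from bone marrow of C57BL6 mice, all carrying ER-HOXA9, a fusion of the estrogen receptor hormone-binding domain with the transcription factor HOXA9 that holds such cells immature while estrogen is present, were profiled by RNA sequencing of polyadenylated RNA. One group was cultured for 3 days with 200 nM GSK-LSD1, which blocks the histone demethylase LSD1, together with the purine antimetabolite mercaptopurine at 5 µM and cerulenin at 5 µM, which blocks fatty acid synthase. A second group received DMSO, the vehicle, for 3 days, and the third was untreated and taken at day 0. Every group, controls included, grew in medium with serum, stem cell factor and 0.5 µM beta-estradiol, so ER-HOXA9 was held active throughout, and each group had 2 replicates. The series text calls them biological, without saying whether they came from separate mice or cultures, so p-values measure only the spread between these libraries, which may be technical. The 3 drugs were given together and cannot be told apart, and neither can DMSO and 3 days of culture. The promoter that drives ER-HOXA9 and the number of clones behind the cells are not stated in the labels.

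Cholesterol is built from acetyl-CoA by way of mevalonate, isoprenoid diphosphates, squalene and lanosterol, and the isoprenoids also serve protein prenylation and the ubiquinone and heme A pathways. When sterol in the endoplasmic reticulum is low, the escort SCAP carries SREBP precursors to the Golgi, where the site-1 and site-2 proteases release the active factor; when sterol is high, the INSIG proteins hold SCAP back. The LXR receptors sense oxysterols and drive genes of cholesterol export, together with Mylip, whose product marks lipoprotein receptors for degradation. Dividing myeloid progenitors depend on this pathway for membranes and prenyl groups.

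Total counts lay between 11305666 and 16948697 per library. The ribosomal RNA gene Rn45s took 15.7% and 15.9% of them in the drug libraries, 16.1% and 14.6% in vehicle and 20.45% and 24.6% in untreated. Values below are normalised read counts in the unit CPM, which brings each library to a common effective size, with sizes scaled by trimmed mean of M values (TMM), in the order replicate 1 and 2. A gene was called where the edgeR quasi-likelihood test, fitted to all 6 libraries, gave a Benjamini-Hochberg adjusted p under 0.05 over all tested genes. Progenitor markers were abundant, and all 10 of 10 listed genes were tested. Their summed level was 12770 and 13530 CPM in drug libraries, 10440 and 10700 CPM in vehicle and 9637 and 10190 CPM in untreated. Mpo was the largest part, with 6517 and 6954 CPM in drug libraries, 4647 and 4646 CPM in vehicle and 3495 and 4027 CPM in untreated. In drugs against vehicle 4 of the 10 were called higher and 2, Ctsg and Cebpa, lower, or 60% against 31.9% of all tested genes. Markers of mature neutrophils summed to 7.61 and 7.87 CPM in drug libraries, 4.11 and 2.93 CPM in vehicle and 1.38 and 2.00 CPM in untreated, with Camp and Retnlg at 0. Among them Mmp9, with 70 and 74 counts in drug libraries, 2 and 1 in vehicle and 4 and 2 in untreated, was called higher in drugs against vehicle, with an adjusted p of 8.34e-07. The other tested markers of that list, S100a8 and Cxcr2, gave log2 changes of -0.57 and -0.22 in drugs against vehicle and did not pass. Markers of macrophages summed to 69.1 and 67.1 CPM in drug libraries, 21.4 and 18.1 CPM in vehicle and 29.5 and 25.7 CPM in untreated. Nearly all of that was Adgre1, while C1qa, C1qc, Marco and Cd5l were at 0 in every library.

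Under the drugs the cholesterol genes moved in both directions and by modest amounts. Against vehicle, 7 of 28 tested members rose and 5 fell, which is 42.9% of them, 25% higher and 17.9% lower; of all tested genes 31.9% were called, 18.1% higher and 13.8% lower. The median log2 change was 0.069 over the members and 0.00075 over all tested genes. The called changes ran from 0.23 to 0.87 in absolute log2 value. In bulk RNA, fewer cells of a type and less RNA per cell cannot be told apart. The rises were in Hmgcs1, Mvd and Ggps1 of the early steps, Sc5d of the late steps, Insig1 and Mbtps1 of SREBP control and Mylip of the LXR arm, and the falls were in Idi1, Sqle, Lss, Dhcr7 and Srebf2. Because the drug and vehicle libraries both also enter comparisons with untreated cells, those comparisons are not independent of this one.

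**Figure D1:**
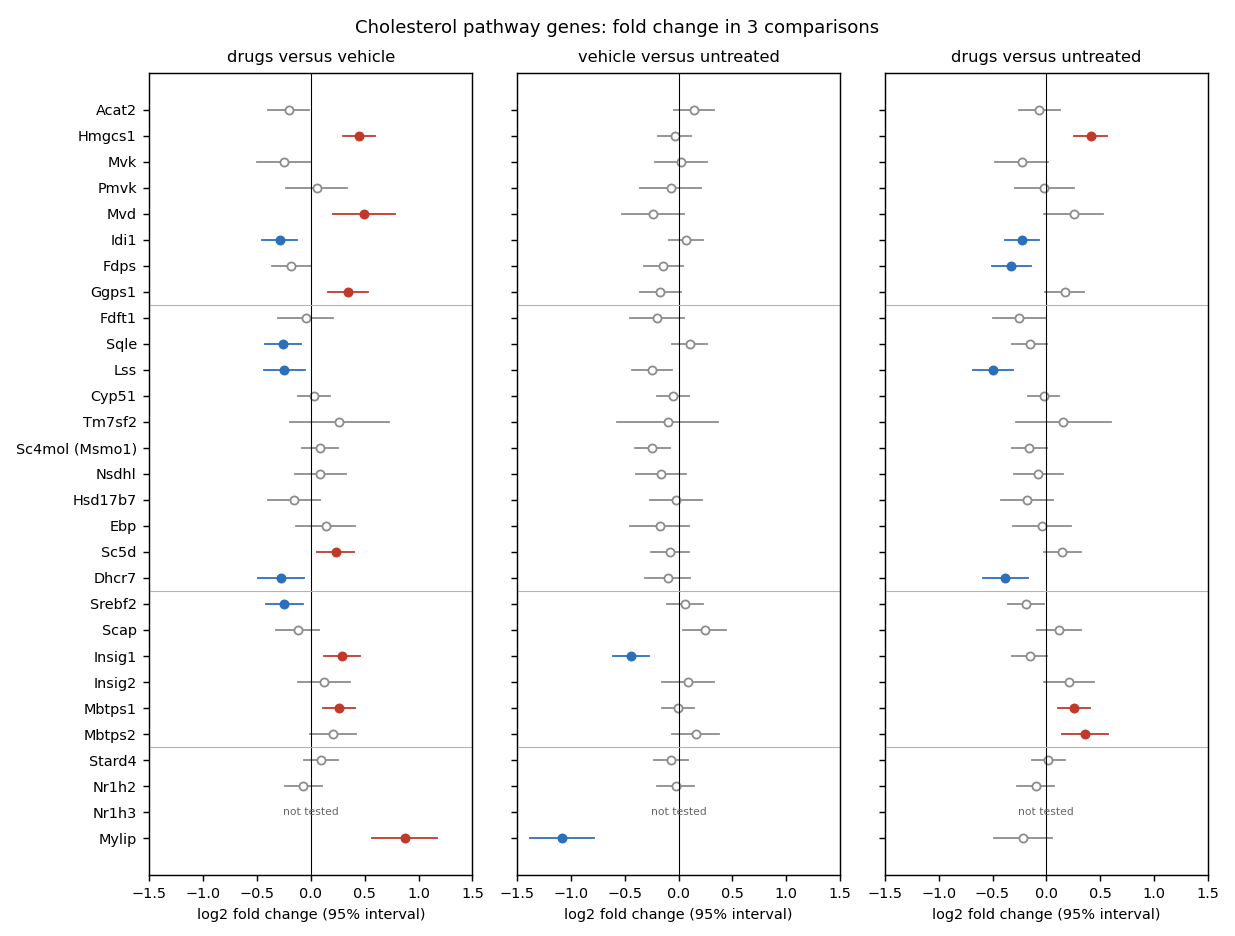
Log2 changes of the tested cholesterol genes, with 95% intervals, in drugs versus vehicle, vehicle versus untreated and drugs versus untreated (bars); genes are grouped by role by horizontal lines, and filled points passed the test. Of 28 tested genes, 12 were called in drugs versus vehicle, 2 in vehicle versus untreated and 7 in drugs versus untreated.

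Promoter windows of 4 members are shown because these genes carry the changes described below. Hmgcs1 and Idi1 had the smallest p of a rise and of a fall in drugs versus vehicle. Insig1 and Mylip were picked after their values were seen, as the only members called lower in vehicle than in untreated cells. The windows are RefSeq sequence of build GRCm38.p6, 250 bases before to 50 bases after the RefSeq start, 5′ to 3′ on the strand of the gene, which is the plus strand in all 4. They lie at chr13:119690101-119690400 for Hmgcs1, chr13:8885356-8885655 for Idi1, chr5:28071162-28071461 for Insig1 and chr13:45389492-45389791 for Mylip. Capitals mark 2 motifs found on either strand: the sterol regulatory element core CACNCCAC, which reads GTGGNGTG on the other strand and is a core letter pattern for SREBP binding, and the NF-Y box CCAAT, which reads ATTGG on the other strand and is the letter pattern of the factor NF-Y that works beside SREBP at sterol genes.
Hmgcs1: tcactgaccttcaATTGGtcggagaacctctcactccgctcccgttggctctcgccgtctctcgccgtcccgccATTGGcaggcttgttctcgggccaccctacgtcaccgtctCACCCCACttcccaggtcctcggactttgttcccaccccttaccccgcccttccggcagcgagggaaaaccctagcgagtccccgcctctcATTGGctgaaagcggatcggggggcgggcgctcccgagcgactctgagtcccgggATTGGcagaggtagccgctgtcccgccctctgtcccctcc
Idi1: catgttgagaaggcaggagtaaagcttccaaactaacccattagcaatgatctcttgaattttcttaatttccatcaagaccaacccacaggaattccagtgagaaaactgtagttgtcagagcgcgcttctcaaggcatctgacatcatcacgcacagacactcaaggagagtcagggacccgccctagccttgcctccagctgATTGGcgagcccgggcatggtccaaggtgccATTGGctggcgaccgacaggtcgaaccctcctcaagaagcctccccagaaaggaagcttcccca
Insig1: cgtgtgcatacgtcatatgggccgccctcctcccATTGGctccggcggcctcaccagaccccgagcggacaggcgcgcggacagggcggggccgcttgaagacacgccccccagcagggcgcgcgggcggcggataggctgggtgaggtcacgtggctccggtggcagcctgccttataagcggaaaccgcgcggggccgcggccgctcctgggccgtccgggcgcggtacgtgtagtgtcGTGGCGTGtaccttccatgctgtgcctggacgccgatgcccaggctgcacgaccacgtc
Mylip: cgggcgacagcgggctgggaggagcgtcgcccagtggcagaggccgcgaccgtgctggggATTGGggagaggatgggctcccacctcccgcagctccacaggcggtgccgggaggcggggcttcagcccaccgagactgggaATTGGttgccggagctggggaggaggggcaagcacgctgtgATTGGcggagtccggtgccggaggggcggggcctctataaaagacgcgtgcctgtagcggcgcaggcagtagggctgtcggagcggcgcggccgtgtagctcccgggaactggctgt
The Hmgcs1 window holds 1 sterol core and 4 NF-Y boxes and the Insig1 window 1 of each. The Idi1 and Mylip windows hold no sterol core by these letters, and have 2 and 3 NF-Y boxes. A RefSeq window was matched for 25 of the 29 members. The sterol core was present in 3 of these 25 (12.0%; Acat2, Hmgcs1 and Insig1), against 6.12% of the windows of 17607 genes of the table. The NF-Y box was present in 17 of 25 (68.0%), against 39.1% of the 17607. Among the windows of 9005 tested genes the shares were 5.92% for the sterol core and 39.7% for the NF-Y box. The Sp1 box GGGCGG, which reads CCGCCC on the other strand, was in 19 of 25 member windows (76.0%), against 47.6% of the 17607 and 65.7% of the 9005. The E-box CACGTG, the same on both strands, was in 4 of 25 (16.0%), against 8.22% and 10.5%. The motifs are unlike in length, the windows are short, and a match is a description of letters, not a measured binding site.

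Of the early mevalonate genes, Hmgcs1, Mvd and Ggps1 rose under the drugs, Idi1 fell, and the other 4 of 8 did not pass. The called share was 50%, against 31.9% of all tested genes, with 37.5% against 18.1% higher and 12.5% against 13.8% lower. These differences in share were not tested. Hmgcs1, on mm10 chromosome 13 from 119690462 to 119708077 on the plus strand, encodes the cytosolic HMG-CoA synthase, which makes the precursor of mevalonate. Its level was 385 and 401 CPM in drug libraries, 290.0 and 287 CPM in vehicle and 296 and 296 CPM in untreated. Both drug libraries stood above all 4 others, and the vehicle and untreated libraries were close together. The log2 change against vehicle was 0.45 ± 0.070 (SE), a 1.36-fold rise with an adjusted p of 0.000376. Against untreated it was 0.41 ± 0.070 with an adjusted p of 0.000513, while vehicle against untreated gave -0.036, with a 95% interval of -0.19 to 0.12.

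Mvd encodes the decarboxylase that yields isopentenyl diphosphate. It had 11.7 and 12.3 CPM in drug libraries, 8.30 and 8.78 CPM in vehicle and 9.93 and 10.2 CPM in untreated. The groups did not overlap, with the drug libraries highest and vehicle lowest. The log2 change against vehicle was 0.49 ± 0.13, with an adjusted p of 0.0128. Ggps1 makes geranylgeranyl diphosphate, a prenyl donor for proteins, and so stands on a branch away from sterol. It had 37.3 and 37.1 CPM in drug libraries, 30.0 and 28.7 CPM in vehicle and 34.2 and 31.7 CPM in untreated. Again vehicle was lowest and the drug libraries highest, with a log2 change of 0.34 ± 0.087 against vehicle and an adjusted p of 0.00957.

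Idi1, on mm10 chromosome 13 from 8885606 to 8892396, encodes the isomerase that balances the isoprenoid building blocks, and went the other way. It had 115 and 109 CPM in drug libraries, 133 and 140.0 CPM in vehicle and 124 and 138 CPM in untreated. Both drug libraries were below the other 4, and vehicle and untreated overlapped. The log2 change against vehicle was -0.29 ± 0.074, with an adjusted p of 0.00966. Fdps, the farnesyl diphosphate synthase that feeds both squalene and prenylation, was low in the drug libraries too; with TMM and all 6 libraries in the fit it passed against untreated cells and not against vehicle. It had 92.8 and 93.9 CPM in drug libraries, 105 and 107 CPM in vehicle and 127 and 107 CPM in untreated, so its untreated replicates lay further apart than the vehicle group lay from the drug group. Its log2 change was -0.18 against vehicle, with an adjusted p of 0.111, which passed under 3 of 13 alternatives (without untreated replicate 1, without untreated replicate 2 and with only those 2 groups; adjusted p from 0.0253 to 0.347), and -0.33 ± 0.082 against untreated, with an adjusted p of 0.00659. The call against untreated was lost without drug replicate 1, without untreated replicate 1 and with library totals as the scale, with adjusted p up to 0.0931 over the alternatives and as low as 0.000257.

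The remaining early genes did not pass in any of the 3 comparisons. Acat2, the thiolase that joins acetyl-CoA units, changed by -0.21 on the log2 scale against vehicle, with an interval of -0.40 to -0.018 and an adjusted p of 0.0897. The mevalonate kinase gene Mvk gave -0.26, with an interval of -0.50 to -0.007 and an adjusted p of 0.11. The phosphomevalonate kinase gene Pmvk gave 0.053, with an interval of -0.23 to 0.34. The 8 genes summed to 711 and 718 CPM in drug libraries, 642 and 648 CPM in vehicle and 663 and 653 CPM in untreated. The median log2 change of the 8 against vehicle was -0.066, while their sum was higher in both drug libraries than in both vehicle libraries. The higher sum rests on Hmgcs1. Its mean was 393 CPM in drug libraries and 289 CPM in vehicle, a wider gap than between the mean sums, 714 and 645 CPM.

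**Figure D2:**
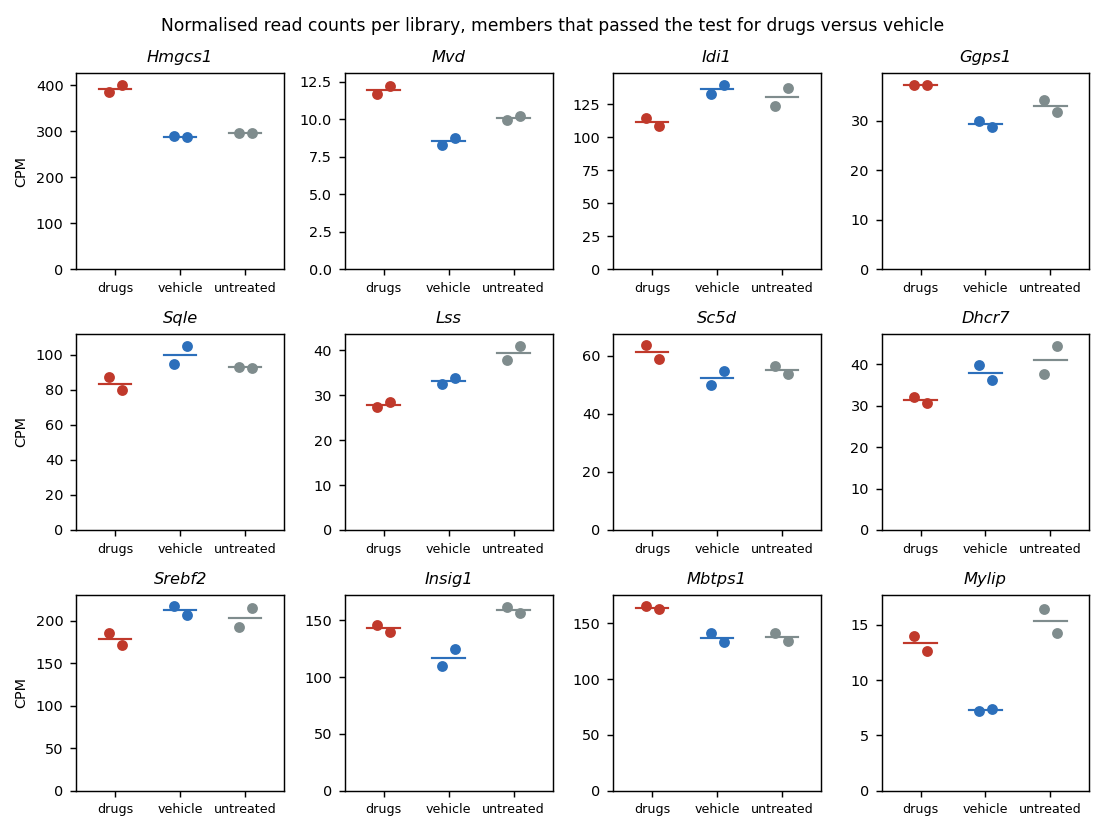
Level in CPM of the 12 members called in drugs versus vehicle, in drug, vehicle and untreated libraries; points are single libraries and lines are group means. Hmgcs1 is highest in both drug libraries. Mylip and Insig1 are lowest in both vehicle libraries and were called lower there than in untreated. Mvd, Ggps1 and, by a small margin, Hmgcs1 are also lowest in both vehicle libraries, without that call.

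Between squalene and cholesterol, Sqle, Lss and Dhcr7 fell under the drugs, Sc5d rose and 7 of 11 did not pass. The called share, 36.4%, is near the 31.9% of all tested genes. None of these 4 calls was made by DESeq2 or held without drug replicate 1 or without drug replicate 2, and Sqle alone of the 4 held with a replicate block. Sqle encodes squalene epoxidase, a rate-limiting oxygen-dependent step. It had 87.1 and 79.8 CPM in drug libraries, 94.7 and 105 CPM in vehicle and 93.2 and 92.6 CPM in untreated. Both drug libraries were lower than the other 4, and the log2 change against vehicle was -0.26 ± 0.076, with an adjusted p of 0.0192. Against untreated the difference was -0.16, with an interval of -0.32 to 0.007 and an adjusted p of 0.111.

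Lss, on mm10 chromosome 10 from 76531627 to 76553934, encodes lanosterol synthase, which closes the sterol rings. Its level was 27.4 and 28.4 CPM in drug libraries, 32.4 and 33.9 CPM in vehicle and 37.9 and 40.9 CPM in untreated. The 3 groups were ordered without overlap, drugs lowest and untreated highest. The log2 change was -0.25 ± 0.089 against vehicle, with an adjusted p of 0.0499, and -0.49 ± 0.086 against untreated, with an adjusted p of 0.000594. Vehicle against untreated gave -0.25, with an interval of -0.43 to -0.062 and an adjusted p of 0.0978, which did not pass. The Lss model shares 188 exonic bases with 4930483K19Rik on the opposite strand, and since the strand setting is not given, its count is uncertain.

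Dhcr7, a reductase of the last steps to cholesterol, had 32.0 and 30.7 CPM in drug libraries, 39.8 and 36.2 CPM in vehicle and 37.6 and 44.4 CPM in untreated. The drug libraries were the lowest pair, and vehicle and untreated overlapped. The log2 change was -0.28 ± 0.099 against vehicle, with an adjusted p of 0.0481, and -0.38 ± 0.098 against untreated, with an adjusted p of 0.00722. Sc5d, the desaturase that makes the substrate of DHCR7, was the one late gene that rose. It had 63.6 and 59.1 CPM in drug libraries, 49.8 and 54.9 CPM in vehicle and 56.5 and 53.9 CPM in untreated. Vehicle and untreated overlapped and both drug libraries stood above them, with a log2 change of 0.23 ± 0.081 against vehicle and an adjusted p of 0.0464.

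The other 7 late genes gave log2 changes against vehicle between -0.16 and 0.26. The lanosterol demethylase gene Cyp51 gave 0.026, with an interval of -0.12 to 0.18. Sc4mol, the older symbol of Msmo1, and Nsdhl and Hsd17b7 encode enzymes that strip methyl groups from the sterol ring; they gave 0.084, 0.088 and -0.16. Ebp, the sterol isomerase gene, gave 0.14, and Fdft1, the squalene synthase gene, gave -0.047. Fdft1 shares 774 exonic bases with Ctsb on the opposite strand, so its count is uncertain. Tm7sf2, a sterol reductase gene with 3.85 to 5.77 CPM over the 6 libraries, gave 0.26 with an interval of -0.20 to 0.72, and shares 9 exonic bases with 1110014N23Rik. The 11 genes summed to 484 and 459 CPM in drug libraries, 472 and 498 CPM in vehicle and 506 and 519 CPM in untreated, so the drug and vehicle sums overlapped.

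In the SREBP machinery the drugs were accompanied by less Srebf2 and more Insig1 and Mbtps1. The called share of the 6 control genes was 50%, against 31.9% of all tested genes, a difference that was not tested. Srebf2, on mm10 chromosome 15 from 82147269 to 82204960, encodes the SREBP that drives cholesterol genes. It had 186 and 171 CPM in drug libraries, 217 and 207 CPM in vehicle and 192 and 214 CPM in untreated. The drug libraries were lowest, vehicle and untreated overlapped, and the log2 change against vehicle was -0.25 ± 0.078, with an adjusted p of 0.0286. Against untreated the difference was -0.19, with an interval of -0.36 to -0.018 and an adjusted p of 0.069.

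Scap, the escort of SREBP, had 228 and 213 CPM in drug libraries, 258 and 223 CPM in vehicle and 188 and 220 CPM in untreated. The drug libraries overlapped with both other groups, while both vehicle libraries stood above both untreated ones. The log2 change against vehicle was -0.13, with an interval of -0.33 to 0.076. Vehicle against untreated gave 0.24, with an interval of 0.041 to 0.44 and an adjusted p of 0.131, which passed under 4 of 13 alternatives (adjusted p from 0.0111 to 0.607).

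Insig1, itself an SREBP target whose product retains SCAP, was low in vehicle; it lies on mm10 chromosome 5 from 28071412 to 28078662 on the plus strand. It had 146 and 140 CPM in drug libraries, 110 and 124 CPM in vehicle and 162 and 156 CPM in untreated. The 3 groups did not overlap. The log2 change was 0.29 ± 0.076 in drugs against vehicle, with an adjusted p of 0.0115, and -0.44 ± 0.076 in vehicle against untreated, with an adjusted p of 0.00383. Drugs against untreated gave -0.15, with an interval of -0.32 to 0.009. Its paralog Insig2, which is controlled apart from SREBP in mouse liver, had 18.1 and 16.9 CPM in drug libraries, 15.8 and 16.3 CPM in vehicle and 15.0 and 15.2 CPM in untreated. The Insig2 log2 change against vehicle was 0.12, with an interval of -0.12 to 0.36.

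Of the proteases that release SREBP, Mbtps1, the site-1 protease gene, had 166 and 163 CPM in drug libraries, 141 and 134 CPM in vehicle and 141 and 134 CPM in untreated. Both drug libraries were higher than the other 4, and the vehicle pair nearly coincided with the untreated pair. The log2 change was 0.26 ± 0.069 against vehicle, with an adjusted p of 0.0126, and 0.25 ± 0.068 against untreated, with an adjusted p of 0.00957. Mbtps2, the site-2 protease gene, had 46.3 and 44.9 CPM in drug libraries, 41.7 and 37.4 CPM in vehicle and 32.4 and 39.0 CPM in untreated. Its rise passed against untreated, at 0.36 ± 0.098 with an adjusted p of 0.01, and not against vehicle, at 0.20 with an interval of -0.009 to 0.42. The sum of the 6 control genes was 790 and 749 CPM in drug libraries, 783 and 742 CPM in vehicle and 730 and 778 CPM in untreated, and overlapped between groups.

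Mylip had the largest absolute log2 change of the 28 tested members in drugs against vehicle and in vehicle against untreated. It lies on mm10 chromosome 13 from 45389742 to 45411940 on the plus strand. It had 14.0 and 12.7 CPM in drug libraries, 7.19 and 7.36 CPM in vehicle and 16.4 and 14.3 CPM in untreated, from 88 to 274 counts per library. Both vehicle libraries stood at roughly equal low levels below the other 4, and the drug libraries were slightly below the untreated ones. The log2 change was 0.87 ± 0.14 in drugs against vehicle, a 1.83-fold difference with an adjusted p of 0.000482, and -1.08 ± 0.14 in vehicle against untreated, with an adjusted p of 0.000625. Drugs against untreated gave -0.22, with an interval of -0.48 to 0.052. Both comparisons that passed use the same vehicle libraries.

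Like Mylip and Insig1, the summed markers of mast cells and basophils were lower in both vehicle libraries than in the other 4. So were the macrophage markers above and the markers of stroma. The stroma list, most of it Pdgfrb, summed to 39.6 and 36.5 CPM in drug libraries, 27.35 and 21.1 CPM in vehicle and 34.4 and 30.6 CPM in untreated. The mast cell and basophil list of 6 genes summed to 1302 and 1214 CPM in drug libraries, 558 and 542 CPM in vehicle and 1155 and 969 CPM in untreated. Of the 4 tested, 2 rose and 1 fell in drugs against vehicle, and 1 fell in vehicle against untreated. Cpa3, the mast cell carboxypeptidase gene, made up most of the sum, with 1189 and 1105 CPM in drug libraries, 470 and 452 CPM in vehicle and 1057 and 872 CPM in untreated; it was picked after its values were seen. Gata2, the other gene of the list called higher in drugs against vehicle, had 89.2 and 87.6 CPM in drug libraries and 61.8 and 62.3 CPM in vehicle. In untreated it had 65.7 and 65.7 CPM, only slightly above vehicle. Its log2 change in drugs against vehicle was 0.51, with an adjusted p of 8.7e-05. Mcpt8 and Ms4a2 did not follow Cpa3. Mcpt8, a basophil protease gene, had 22.6 and 19.1 CPM in drug libraries, 25.1 and 26.1 CPM in vehicle and 31.2 and 30.2 CPM in untreated, and fell in drugs against vehicle with an adjusted p of 0.0469. Ms4a2, a subunit gene of the IgE receptor, had 0.721 and 1.42 CPM in drug libraries, 1.58 and 2.01 CPM in vehicle and 1.08 and 1.5 CPM in untreated, and did not pass. Fcer1a, a defining marker, was at 0 in every library, and Prss34 had at most 3 counts. The part of mast cells and basophils, macrophages or stroma in the Mylip and Insig1 changes was not tested.

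The LXR receptor genes themselves were unequal in level. Nr1h2, which encodes LXR beta, had 47.0 and 48.7 CPM in drug libraries, 51.4 and 49.1 CPM in vehicle and 53.5 and 48.7 CPM in untreated. Both drug libraries were slightly below the other 4, vehicle and untreated overlapped, and the log2 change against vehicle was -0.070, with an interval of -0.24 to 0.10. Nr1h3, which encodes LXR alpha, had 3 and 4 counts in drug libraries, 2 and 4 in vehicle and 2 and 1 in untreated, too few for a test. Per kilobase of exon, Nr1h2 stood at 24.4 ± 0.59 CPM in drug libraries, 25.6 ± 0.83 in vehicle and 26.0 ± 1.7 in untreated, against 0.122, 0.121 and 0.0498 CPM per kilobase for Nr1h3 (SD, n = 2). Stard4, which carries sterol between membranes, gave a log2 change of 0.089 against vehicle, with an interval of -0.069 to 0.25.

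How firmly these calls hold differs between genes. In drugs against vehicle, Hmgcs1 and Mylip were called under all 13 alternatives, with adjusted p of at most 0.0161 for Hmgcs1 and 0.00763 for Mylip. The other 10 called members were each lost without drug replicate 1, with adjusted p between 0.0553 and 0.329, and without drug replicate 2, with adjusted p between 0.0585 and 0.268. In these fits the lone drug library is assumed to vary like the other groups. Without vehicle replicate 1, Mvd, Lss, Sc5d, Dhcr7, Srebf2 and Insig1 were lost, with adjusted p between 0.0763 and 0.263. Without vehicle replicate 2, Ggps1, Sqle, Lss and Mbtps1 were lost, with adjusted p between 0.0621 and 0.147. DESeq2 did not call Mvd, Ggps1, Sqle, Lss, Sc5d and Dhcr7, with adjusted p between 0.0545 and 0.212. Scaled to library totals, Sc5d and Insig1 were lost, with adjusted p between 0.0514 and 0.155. Sc5d was called under 4 of the 13 alternatives and Lss under 7. No called member changed sign under any of the 13, and adjusted p for the 10 lay between 0.00094 and 0.329 over them.

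In vehicle against untreated cells, Insig1 and Mylip fell, 2 of 28 (7.14%), and the other 26 did not pass, with log2 changes between -0.25 and 0.24 and interval bounds between -0.57 and 0.44. Of all tested genes 7.74% were called, 3.75% higher and 3.99% lower, so the share among the members is near that of all genes. Median log2 changes were -0.072 over the members and -0.017 over all tested genes. Both member calls held under all 13 alternatives. Scaled to library totals, the median of all genes moved to 0.10 and the higher share of called genes to 89.0%, against 48.45% with TMM.

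In drugs against untreated, 3 of 28 members rose, Hmgcs1, Mbtps1 and Mbtps2, and 4 fell, Idi1, Fdps, Lss and Dhcr7. That is 25% of the members, 10.7% higher and 14.3% lower, while 43.9% of all tested genes were called, 22.7% higher and 21.2% lower. The share of called members was therefore below that of all genes here and above it in drugs against vehicle; neither difference was tested. The 21 members that did not pass had log2 changes between -0.25 and 0.25 and interval bounds between -0.50 and 0.60. Idi1 fell by 0.23 ± 0.074, with an adjusted p of 0.0254. Hmgcs1 and Lss held under all 13 alternatives. Dhcr7 was lost without drug replicate 2, with an adjusted p of 0.0656 (range over alternatives 0.000547 to 0.0656). Mbtps1 was lost without either drug replicate (range 0.00339 to 0.103) and Mbtps2 without drug replicate 1 and without untreated replicate 1 (range 0.000595 to 0.103). Idi1 was lost under 6 of 13, among them without either drug replicate and without untreated replicate 2 (range 0.00848 to 0.192). Scaled to library totals, 70.4% of called genes were higher, against 51.7% with TMM.

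Levels among the members spanned a wide range per kilobase of exon. In vehicle libraries Hmgcs1 stood first at 87.9 ± 0.63 CPM per kilobase, followed by Fdps at 72.6 ± 1.1 and Scap at 56.1 ± 5.7 (SD, n = 2). Idi1 at 47.6 ± 1.7, Srebf2 at 46.4 ± 1.5 and Insig1 at 44.2 ± 4.0 came next and did not differ beyond their spread. The lowest tested members were Mvd at 4.58 ± 0.18, Tm7sf2 at 2.77 ± 0.24 and Mylip at 2.44 ± 0.039. In drug libraries Hmgcs1 reached 120 ± 3.4 and Fdps 63.9 ± 0.52 CPM per kilobase. In untreated libraries Hmgcs1 was at 90.1 ± 0.11 and Fdps at 79.9 ± 9.9.

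**Figure D3:**
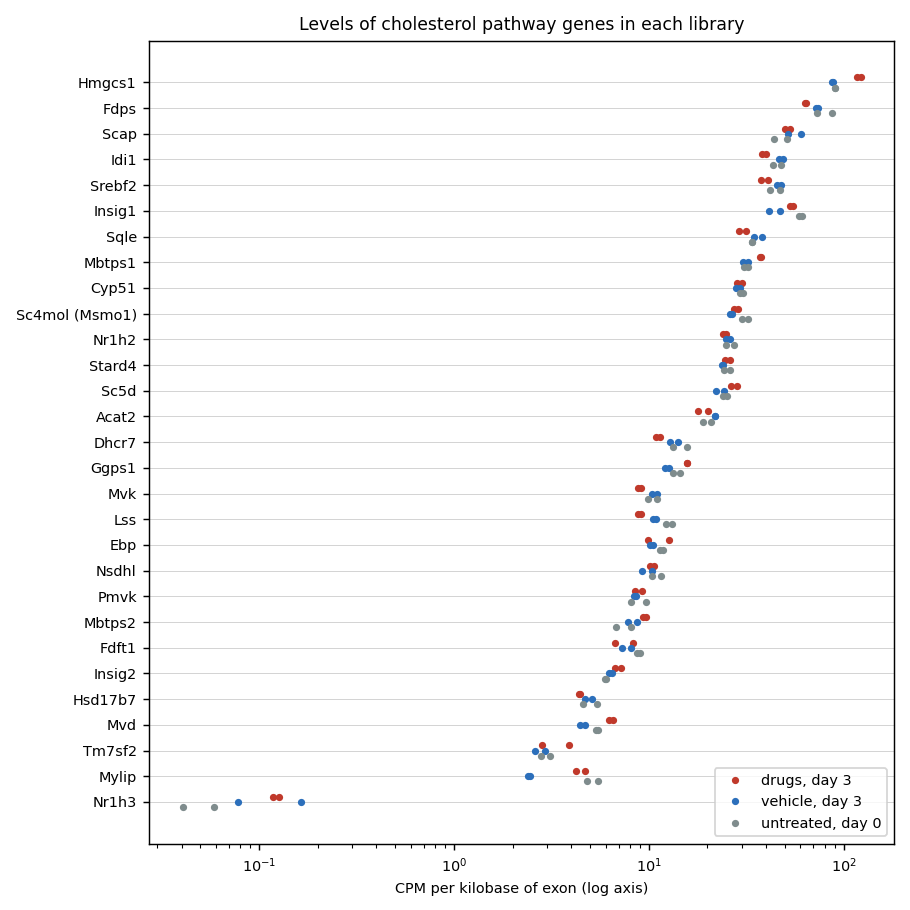
Level of each member in CPM per kilobase of exon, on a log axis, ordered by the vehicle mean, with a point for each drug, vehicle and untreated library. Hmgcs1 is the highest member in all 3 groups and Nr1h3, with means of 0.122, 0.121 and 0.0498 CPM per kilobase in drug, vehicle and untreated libraries, the lowest.

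Genes around the synthetic pathway were taken from 5 further lists. Of 18 tested genes of sterol trafficking, storage and export, 7 rose and 4 fell in drugs against vehicle, 61.1% against the 31.9% of all tested genes that were called, with a median log2 change of 0.069. Lipa encodes the lysosomal acid lipase that frees cholesterol from its esters. It had 64.8 and 65.3 CPM in drug libraries, 28.6 and 28.6 CPM in vehicle and 27.9 and 24.5 CPM in untreated. Soat1 encodes the enzyme that esterifies cholesterol for storage. It had 169 and 170 CPM in drug libraries, 88.9 and 92.1 CPM in vehicle and 83.0 and 87.4 CPM in untreated. In both genes the drug libraries stood far above the other 4. The log2 change against vehicle was 1.19 ± 0.085 for Lipa, with an adjusted p of 3.61e-07, and 0.91 ± 0.067 for Soat1, with an adjusted p of 4.5e-07. The other rises were Npc2, Nceh1, Osbpl9, Scarb2 and Gramd1a, all named after their values were seen. Osbpl9 gave 0.58 ± 0.080 against vehicle with an adjusted p of 0.00013, a larger change than Npc2 or Nceh1. Scarb2 gave 0.37 ± 0.078 with an adjusted p of 0.00295, and Gramd1a 0.30 ± 0.088 with an adjusted p of 0.021. Npc2, which hands lysosomal cholesterol onward, had 184 and 196 CPM in drug libraries, 126 and 137 CPM in vehicle and 161 and 127 CPM in untreated, a log2 change against vehicle of 0.53 ± 0.098 with an adjusted p of 0.00123. The libraries of Npc2 in the vehicle and untreated groups overlapped. Nceh1, a cholesteryl ester hydrolase gene, gave 0.42 ± 0.093 with an adjusted p of 0.00409, and was lost without drug replicate 1, at an adjusted p of 0.073 (range over alternatives 2.21e-05 to 0.073).

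The 4 genes of that list that fell were Lrp1, Lrp8, Osbp and Abcg1, which is also on the list of LXR targets and is described there; the others were likewise named after their values were seen. Lrp1, a large endocytic receptor, had 12.7 and 14.5 CPM in drug libraries, 21.3 and 20.3 CPM in vehicle and 11.4 and 12.6 CPM in untreated. It was highest in vehicle, with a log2 change of -0.61 ± 0.12 in drugs against vehicle and an adjusted p of 0.00166, and of 0.80 ± 0.12 in vehicle against untreated, with an adjusted p of 0.0017. Lrp8, another receptor of that family, had 90.3 and 86.2 CPM in drug libraries, 122 and 113 CPM in vehicle and 111 and 126 CPM in untreated. Its drug libraries were lowest, at -0.42 ± 0.080 against vehicle with an adjusted p of 0.00155. Osbp, a sterol carrier between the endoplasmic reticulum and the Golgi, gave -0.30 ± 0.077 with an adjusted p of 0.0112, and was lost without drug replicate 1, without drug replicate 2 and without vehicle replicate 1, with adjusted p over all alternatives from 0.00092 to 0.135. The summed macrophage and neutrophil markers above, mostly Adgre1 and Mmp9 in drug libraries, were higher there than in the other 4 libraries. Their part in the changes of this list was not tested.

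**Figure D4:**
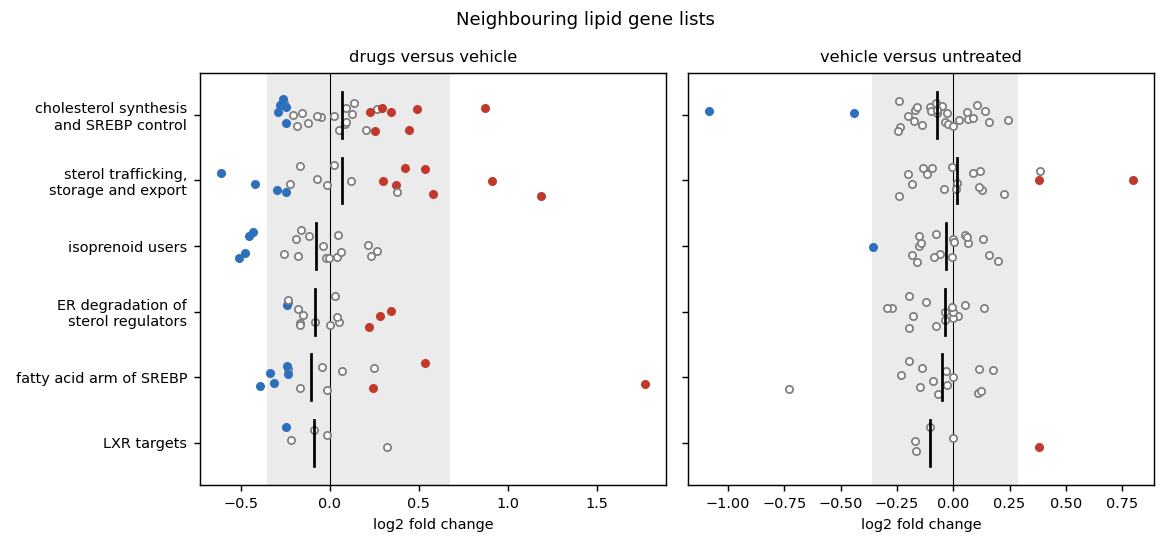
Log2 changes in drugs versus vehicle and in vehicle versus untreated of the tested cholesterol members and of the 5 neighbouring lists; each point is a gene, filled where it passed the test, black bars are medians and grey bands span the 10th to 90th percentile of all tested genes. In drugs versus vehicle Lipa and Soat1 rose by 1.19 and 0.91, and the medians of the lists lay between -0.11 and 0.069.

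Among 18 users of isoprenoids, for prenylation, ubiquinone or heme A, 4 fell and the other 14 did not pass, so 22.2% were called, against 31.9% of all tested genes, with a median log2 change of -0.076. Zmpste24, the protease that trims farnesylated prelamin A, had 74.9 and 71.4 CPM in drug libraries, 104 and 93.4 CPM in vehicle and 96.8 and 101 CPM in untreated. Its log2 change against vehicle was -0.43 ± 0.074, with an adjusted p of 0.000759. Cox10, which attaches farnesyl to heme, gave -0.47 ± 0.11 with an adjusted p of 0.00596. Chml, a Rab escort gene, gave -0.46 ± 0.11 with an adjusted p of 0.00546. Pdss1, which makes the ubiquinone side chain, gave -0.51 ± 0.14 with an adjusted p of 0.0147. Without drug replicate 1, Chml and Pdss1 were lost, with adjusted p of 0.0757 and 0.174; without vehicle replicate 1, Pdss1 and Cox10 were lost, with adjusted p of 0.0913 and 0.0577. Over all alternatives adjusted p ran from 3.03e-05 for Chml, 0.000474 for Pdss1 and 5.48e-05 for Cox10 up to those largest values.

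Of 15 genes for degradation of sterol regulators at the endoplasmic reticulum, 3 rose and 2 fell, a share of 33.3% that is near the 31.9% of all tested genes, with a median log2 change of -0.083. The ligase gene Syvn1 gave 0.28 ± 0.080, with an adjusted p of 0.0163, and Ufd1l, a cofactor of the extraction ATPase, gave 0.34 ± 0.098 with an adjusted p of 0.0171. Erlin2 also rose, by 0.22, with an adjusted p of 0.0444. The 2 that fell were Rnf139, at -0.24 ± 0.074 with an adjusted p of 0.025, and Rnf145, at -0.235 ± 0.072 with an adjusted p of 0.0243. Erlin2, Rnf139 and Rnf145 were named after their values were seen, and their hold under the alternatives was not examined. Syvn1 was lost without drug replicate 1, without drug replicate 2, without vehicle replicate 2 and with DESeq2, with adjusted p over all alternatives from 0.00622 to 0.149. Ufd1l was lost without drug replicate 2, without vehicle replicate 1, with DESeq2 and with library totals, with adjusted p from 0.00862 to 0.202.

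Of 14 tested genes of the fatty acid arm of SREBP, 3 rose and 5 fell, or 57.1% against 31.9% of all tested genes, with a median log2 change of -0.11. Elovl5, a fatty acid elongase gene, had 242 and 242 CPM in drug libraries, 164 and 171 CPM in vehicle and 152 and 155 CPM in untreated, a log2 change against vehicle of 0.53 ± 0.067 with an adjusted p of 5.79e-05. Acly, whose product supplies cytosolic acetyl-CoA to both fatty acid and sterol synthesis, had 271 and 261 CPM in drug libraries, 362 and 336 CPM in vehicle and 345 and 368 CPM in untreated. Both drug libraries were lowest, and the log2 change against vehicle was -0.39 ± 0.076 with an adjusted p of 0.00161. Lpin1, the lipin gene of the phosphatidate step, had 3.04 and 1.81 CPM in drug libraries, 0.711 and 0.669 CPM in vehicle and 0.957 and 1.41 CPM in untreated. Its log2 change against vehicle was 1.77 ± 0.40, with an adjusted p of 0.00455, and was lost without drug replicate 1, at 1.38 with an adjusted p of 0.0623 (range over alternatives 8.4e-05 to 0.0623).

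Of 9 listed LXR target genes, 5 were tested. Mylip, which rose by 0.87 against vehicle, is counted with the members and not on this list. Abcg1 fell and the other 4 did not pass, a called share of 20% against 31.9% of all tested genes. The median log2 change of the 5 was -0.090. Abcg1, a cholesterol exporter, had 59.4 and 52.5 CPM in drug libraries, 68.0 and 64.5 CPM in vehicle and 52.7 and 49.0 CPM in untreated. It was highest in vehicle, where Mylip was lowest. The log2 change was -0.25 ± 0.083 in drugs against vehicle, with an adjusted p of 0.0382, and 0.38 ± 0.083 in vehicle against untreated, with an adjusted p of 0.0156. The first was lost without drug replicate 1, without drug replicate 2, without vehicle replicate 1, with DESeq2 and with library totals, with adjusted p over all alternatives from 0.0146 to 0.355. The second was lost without vehicle replicate 1, with an adjusted p of 0.1 (range 0.000233 to 0.1).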

How the data were processed

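Polyadenylated RNA of mouse cells was sequenced in 6 libraries, 2 in each of 3 groups. The deposited table holds raw read counts per gene, made by the authors; the labels call it featurecount. Its Length column, another unit, equals the summed exon union in all 23337 genes and was used for CPM per kilobase. The submitters' processing notes name STAR 2.7.0f, deepTools 3.0.2 and mm10. Overlapping genes are uncertain, since strand setting, multi-match handling and annotation release (all not given in the sources used here) can split their reads.

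Low counts were removed with filterByExpr (minimum count 10), libraries were scaled by TMM, and all 6 libraries were fitted together in edgeR 4.0.16 (R 4.3.3; quasi-likelihood F test, 3 residual degrees of freedom, Benjamini-Hochberg over 11283 genes, threshold 0.05). The SE was derived from F; intervals are 95%. The procedure was tested on simulated data in which all groups shared the same spread. Replicate agreement here differed between groups, so that run does not vouch for the small member changes. Alternatives were other scalings, no filter, DESeq2 1.42.0, Rn45s left out, only the compared groups, a replicate block and leaving out each library. Chi-square values per degree of freedom between replicates were 1.85 in drugs, 5.78 in vehicle and 14.1 in untreated, all above counting noise. They were taken from raw counts with Rn45s included and without TMM. Differences between replicates in Rn45s share, 20.45% and 24.6% in untreated, therefore enter them.

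The members and gene lists were chosen with earlier results of these data known. Every member is named. Library values are given for members called in drugs versus vehicle, or called with an absolute log2 change of at least 0.5 in vehicle versus untreated, and for the SREBP and LXR regulators; from each other list, up to 4 genes called in drugs versus vehicle are named, 2 by smallest p and 2 by absolute change, unless stated. Promoter windows were read from a RefSeq table with Python 3.11.15. Some genes of the pathway are not reported here.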

Additional observations from a re-analysis of the deposited data

How the results depend on the processing

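Drugs versus vehicle called 3601 genes; DESeq2 called 2329 and leaving out 1 library gave 1833 to 4191. Members that rose numbered 7, with 4 by DESeq2 and 2 to 7 without 1 library; members that fell numbered 5, with 2 by DESeq2, 2 with a replicate block and 0 to 6 without 1 library. The counts of 0 came without drug replicate 1 and without drug replicate 2, where 5 and 2 members were lower in edgeR at an unadjusted p under 0.05; DESeq2 was run only on all 6 libraries. Vehicle versus untreated called 873 genes: 1957 with library totals, 1664 with no filter, 527 with only the 2 groups, 469 by DESeq2, 483 with a replicate block and 351 to 2012 without 1 library. Members higher there numbered 0 by edgeR and by DESeq2, each with 1 at an unadjusted p under 0.05, then 1 with library totals and 1 with no filter (Scap in both), and 0 to 1 without 1 library; members lower numbered 2 to 4 without 1 library. Drugs versus untreated called 4958 genes, and 2872 to 5142 without 1 library; members higher numbered 1 to 3 and members lower 2 to 4 without 1 library, and members lower 2 with library totals. The cause of these shifts was not tested. No called value changed direction. Replicate numbers were not used as pairs: the correlation across genes of same-numbered deviations was 0.0808 for drugs and vehicle, -0.199 for vehicle and untreated and -0.0605 for drugs and untreated. With the replicate block, drugs versus vehicle called 6 members higher and lost Lss, Sc5d, Dhcr7 and Srebf2, and drugs versus untreated lost Idi1. With 2 libraries a group, SEs of member log2 changes lay between 0.069 and 0.21 in drugs versus vehicle, so small differences in Tm7sf2 and other low members were not detectable at this depth.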
